A study of Mus musculus with 15 samples.

Results

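The 10 genes described here belong to the chemokine system of myeloid cells and were followed through the RNA-seq libraries of MLL-ENL-transformed cells: 7 ligands (Ccl2, Ccl3, Ccl4, Ccl6, Ccl9, Cxcl2 and Cxcl10) and 3 receptors (Cxcr2, Cxcr4 and Ccr1). They were taken by gene symbol from a table of 53379 genes, and all 10 were present in it. Chemokines are small secreted proteins that direct the migration of leukocytes, and they act on receptors with 7 membrane-spanning segments that couple to G proteins of the Gi class. CC chemokines such as CCL2, CCL3, CCL4, CCL6 and CCL9 mainly attract monocytes, macrophages and other mononuclear cells, whereas CXCL2 attracts neutrophils through CXCR2. Many of these genes are off or low in resting cells and are induced by NF-kB or interferon signalling, and C/EBPβ is a known activator of several inflammatory genes in macrophages.

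The study asked how far growth and gene expression of cells transformed by MLL-ENL depend on the transcription factors C/EBPα and C/EBPβ. Fetal liver cells of Cebpa fl/fl;Cebpb fl/fl mice were infected with an MLL-ENL retrovirus, selected with G418 and kept in medium with 10 ng/ml IL-3, and these steps are common to every group. The WT groups carried the undeleted floxed alleles and list no exogenous gene, the dKO groups lost Cebpa and Cebpb after TAT-Cre and expressed GFP, and the LAPS group was dKO cells with GFP and the rat C/EBPβ isoform LAP*. Lines C1 and C2 came from different mice, each had a WT and a dKO group, and LAPS cells are described here for C1 only. A group was 1 clonal line sampled at 3 times, so p-values measure the spread between samplings of a line and not between mice. The dKO lines were rare clones that kept growing after repeated rounds of TAT-Cre. Deletion, selection of a clone and the GFP vector therefore cannot be told apart in dKO against WT cells.

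The 15 libraries held 9212237 to 13613500 reads on genes (median 11885279). Values are normalized reads, that is, reads scaled by each library's size factor. A gene was tested if 3 or more libraries reached 10 normalized reads, which all 10 chemokine genes did, among 12673 genes. Ccl2 passed through the C1 WT group, with 1 other library over this minimum, and Cxcl2 and Cxcl10 passed mainly through the WT groups, so passing is no support for their direction. Cebpa and Cebpb each had 0 reads in all 6 dKO libraries, against 903 to 2267 and 1353 to 1634 normalized reads in WT cells, and LAPS libraries had 2538 to 4216 for Cebpb. LAP* is a rat sequence counted here on the mouse gene, so its level is not directly comparable with that of WT cells. Myeloid markers were present in every group, while summed markers of B cells, T cells, endothelial and stromal cells stayed between 0 and 11.5 normalized reads. Other lineage markers differed between WT and dKO cells. Summed markers of mast cells and basophils were at 73.4 to 106 normalized reads in C1 WT against 1710 to 1983 in C1 dKO libraries, and at 170.4 to 180.2 in C2 WT against 889 to 1331 in C2 dKO libraries. In C1 all 4 tested markers of this list were called higher, whereas in C2 Cpa3 and Gata2 were higher, Mcpt8 was not called and Ms4a2 was lower. Summed megakaryocyte markers were at 3.06 to 8.12 in C1 WT against 202 to 302 in C1 dKO libraries, and at 7.97 to 27.3 against 117 to 200 in C2. Of 7 progenitor and myeloid markers 5 were called higher in each line, where 17.1% of all tested genes were higher in C1 and 17.4% in C2. Cd34, Cpa3 and Gp1bb reached 10 normalized reads in dKO and LAPS libraries only, so the filter fixed their direction. The part of these markers in the chemokine results was not tested. Among C1 WT cells replicate 3 stood apart, with a mean chi-square per gene of 22.4 and 31.6 against its replicates, where the other 13 pairs within groups gave 5.0 to 18.8. In these bulk samples fewer cells of a type and less RNA per cell cannot be told apart.

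A cluster of 4 of the ligand genes lies on chromosome 11 of the mm10 genome. Ccl9 (chr11:83572919-83578636) and Ccl6 (chr11:83587882-83593087) lie 9.25 kb apart on the minus strand, Ccl3 (chr11:83647844-83649355, minus strand) follows after 54.8 kb, and Ccl4 (chr11:83662584-83664683, plus strand) after a further 13.2 kb. Ccl2 (chr11:82035571-82037453) is 1535 kb from Ccl9 on the same chromosome. On chromosome 5 are Cxcl2 (chr5:90903871-90905938) and Cxcl10 (chr5:92346638-92348889). The receptors lie elsewhere, Cxcr2 at chr1:74153989-74161246, Cxcr4 at chr1:128588199-128592293 and Ccr1 at chr9:123962124-123968692. All 10 are protein-coding. Only Cxcl10 shared exon sequence with another gene, 133 bp or 5.91% of its exons with Art3 on the opposite strand, and Art3 averaged 2.68 normalized reads.

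The 250 bases upstream of the start site, as RefSeq gives them on GRCm38.p6, were read for the 8 of these genes that matched. They were searched on both strands for 5 short motifs of factors that act on myeloid or inflammatory genes. The motifs were TTGCNNAA (C/EBP), GGGNNNTTC (NF-kB), GAAANNGAA (interferon response element), TGANTCA (AP-1) and GAGGAA (PU.1). The 4 windows shown are the upstream regions of Cxcl2 and Cxcl10, which fell steeply in C1 dKO cells, of Ccl9, which fell far more in C2 than in C1, and of Cxcr2, which rose in C1 dKO cells. Capitals mark every match.

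Cxcl2, chr5:90903649-90903898, plus strand: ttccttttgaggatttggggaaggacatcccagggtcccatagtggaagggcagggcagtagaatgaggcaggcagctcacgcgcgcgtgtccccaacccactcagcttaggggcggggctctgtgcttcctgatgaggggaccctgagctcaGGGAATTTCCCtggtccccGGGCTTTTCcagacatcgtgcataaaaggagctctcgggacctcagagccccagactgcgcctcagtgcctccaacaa
Cxcl10, chr5:92348890-92349139, minus strand: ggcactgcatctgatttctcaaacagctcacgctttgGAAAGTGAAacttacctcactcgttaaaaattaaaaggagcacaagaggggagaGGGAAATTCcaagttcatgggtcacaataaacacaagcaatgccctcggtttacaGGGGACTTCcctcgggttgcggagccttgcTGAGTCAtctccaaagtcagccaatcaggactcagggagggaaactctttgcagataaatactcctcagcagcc
Ccl9, chr11:83578637-83578886, minus strand: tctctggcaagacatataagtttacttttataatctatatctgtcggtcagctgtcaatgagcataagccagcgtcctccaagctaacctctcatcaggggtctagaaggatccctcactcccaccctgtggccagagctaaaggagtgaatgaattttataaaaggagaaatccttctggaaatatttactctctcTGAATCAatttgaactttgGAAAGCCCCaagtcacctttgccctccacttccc
Cxcr2, chr1:74153744-74153993, plus strand: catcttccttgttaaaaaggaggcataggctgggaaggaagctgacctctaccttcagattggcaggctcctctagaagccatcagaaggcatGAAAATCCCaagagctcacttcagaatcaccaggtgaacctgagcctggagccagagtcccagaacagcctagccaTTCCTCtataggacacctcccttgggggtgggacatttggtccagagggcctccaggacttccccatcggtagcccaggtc

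Counting back from -1 at the base before the start site, Cxcl2 had NF-kB letters from -97, -95 and -78, of which the first pair overlap on opposite strands. Cxcl10 had an interferon response element from -213, NF-kB letters from -159 and -104 and an AP-1 match from -74. Ccl9 held an AP-1 match from -53 and NF-kB letters from -34. Cxcr2 had NF-kB letters from -157 and PU.1 letters from -81. Of the windows not shown, Ccl3 had an interferon element from -39 that overlaps PU.1 letters from -33, Ccr1 had PU.1 letters from -129, Cxcr4 had NF-kB letters from -223, and Ccl6 had no match. NF-kB letters were in 5 of 8 windows against 11.8% of all 32851 upstream windows, the interferon element in 2 against 7.13%, the AP-1 motif in 2 against 6.75% and PU.1 letters in 3 against 23.3%. The C/EBP letters were in 0 of 8, against 9.56% of all windows. Such matches describe the sequence and show no binding, and their absence says only that these letters were not in the window.

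All 7 ligands were lower in C1 dKO than in C1 WT cells, and 6 of 7 were lower in C2 dKO than in C2 WT cells. Limma called 19.9% of all tested genes lower in C1 and 20.1% in C2 (Benjamini-Hochberg adjusted p under 0.05). The median log2 fold change of the 7 ligands was -3.84 in C1 and -2.89 in C2, beside medians of -0.01 and -0.03 over all 12673 genes tested. WT and dKO libraries did not overlap for 7 of 7 ligands in C1 and 6 of 7 in C2, as for 23.5% and 27.8% of all tested genes in this direction, and no ligand was higher in dKO cells. Ccl2 passed the filter through C1 WT cells, and Cxcl2 and Cxcl10 mainly through WT cells, so they add no support to these counts and medians. The genes were also chosen with earlier results of these data known. Of the 3 receptors, 1 was called higher in each line, Cxcr2 in C1 and Cxcr4 in C2, where 17.1% and 17.4% of all tested genes were called higher, and no receptor of the 3 was called lower.

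**Figure D1:**
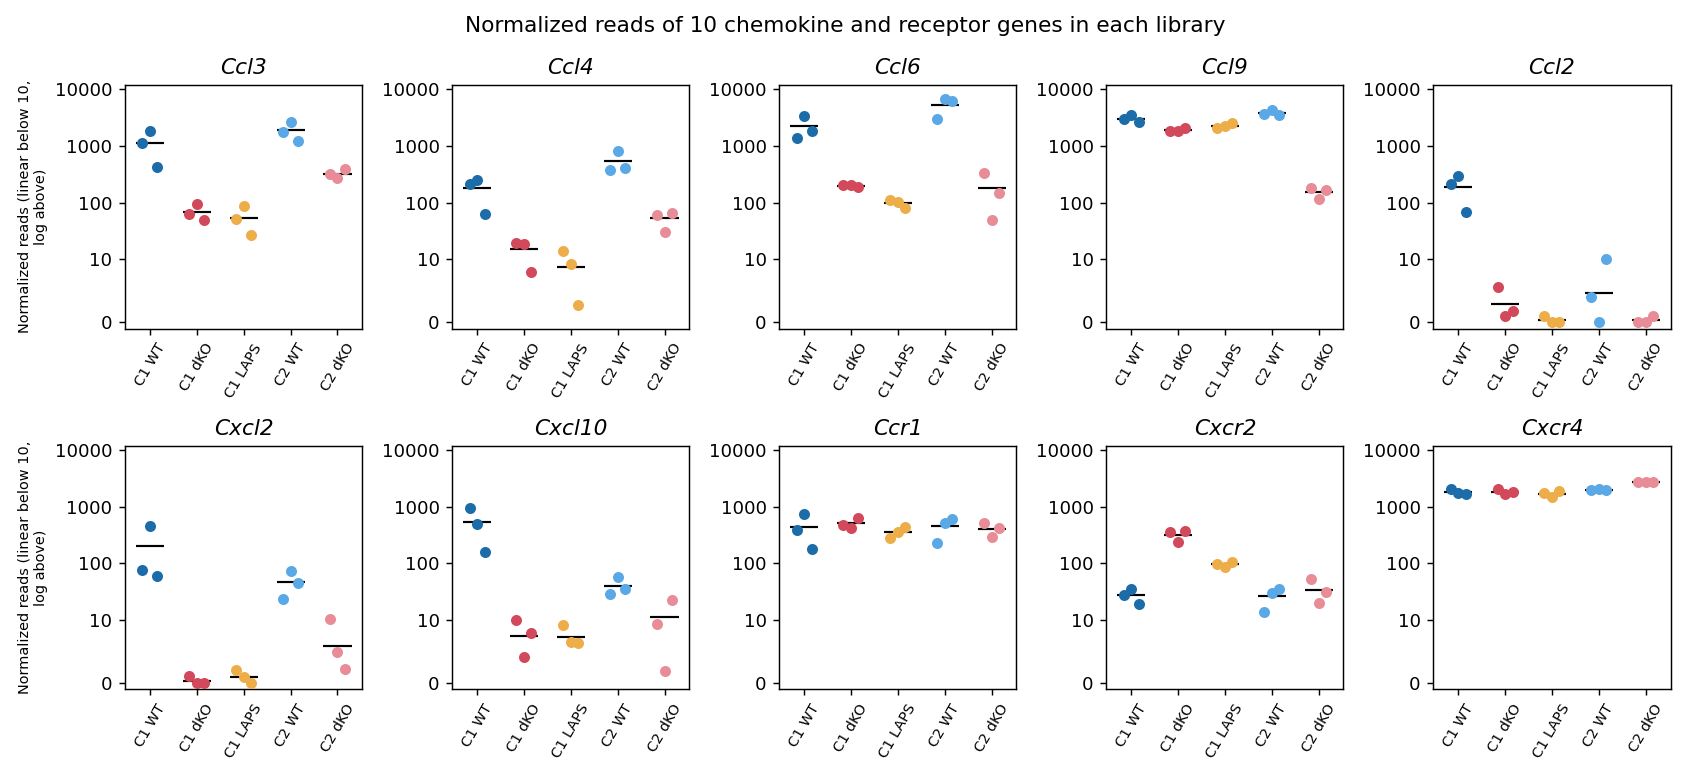
Normalized reads of the 10 genes in each of the 15 libraries (points, replicates 1 to 3 from left to right) with the group mean (line); the vertical axis is linear below 10 and logarithmic above. WT libraries lie above the dKO libraries of their own line for Ccl3, Ccl4, Ccl6, Ccl9, Cxcl2 and Cxcl10, and for Ccl2 the C1 WT libraries lie far above all others.

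**Figure D2:**
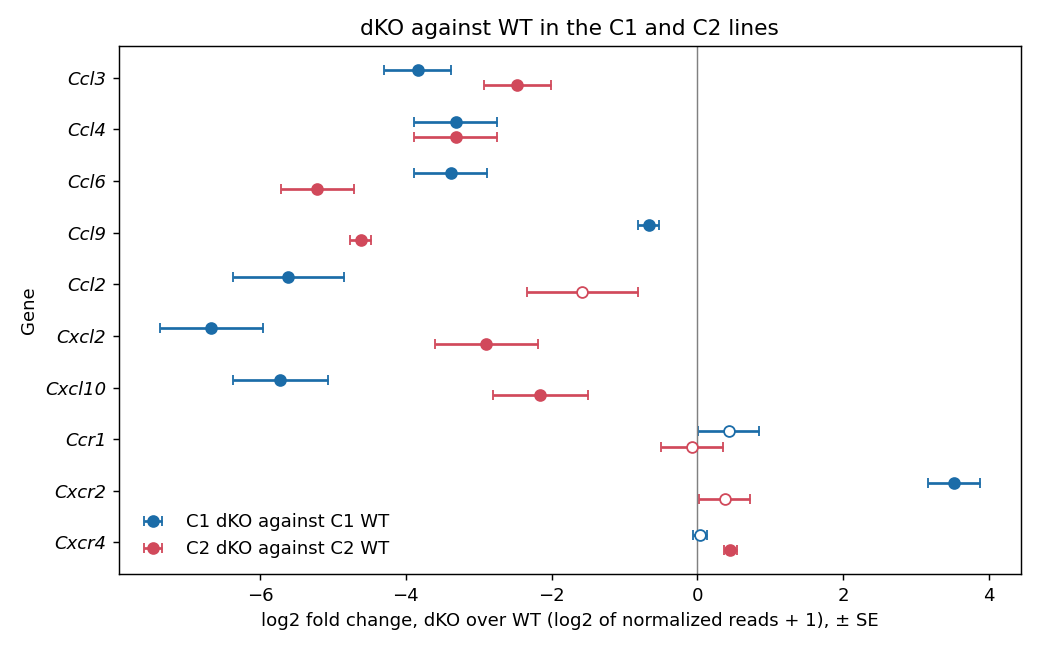
Log2 fold change of dKO over WT cells (points, horizontal axis, with standard error) for each gene in line C1 and line C2; filled points passed limma's adjusted p under 0.05. Ccl3, Ccl4, Ccl6, Cxcl2 and Cxcl10 fell by more than 2 log2 units in both lines, and the points of Ccl2, Ccl9, Cxcl2, Cxcl10 and Cxcr2 lie more than 3 log2 units apart between the lines.

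Ccl3 and Ccl4 encode MIP-1α and MIP-1β, chemokines that activated macrophages secrete, and CCL3 is a ligand of CCR1. In C1 WT cells Ccl3 had 1136, 1826 and 429 normalized reads and in C1 dKO cells 62.3, 93.3 and 50.3. The C2 libraries gave 1746, 2691 and 1231 in WT and 321, 271 and 388 in dKO cells. Every WT library was thus above every dKO library of its line, although the lowest C1 WT library was close to the highest C2 dKO library. The log2 fold change was -3.84 ± 0.46 (SE) in C1 (limma, adjusted p = 8.08e-06) and -2.47 ± 0.46 in C2 (adjusted p = 0.000577). Dividing the group means, Ccl3 was 16.5 times higher in C1 WT and 5.78 times higher in C2 WT than in dKO cells. The effects were not shown to differ between the lines (difference 1.37 ± 0.66, limma adjusted p = 0.135), but without replicate 3 of C1 WT the same difference was called (adjusted p = 0.0136).

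Ccl4, the neighbour of Ccl3, followed the same pattern at a lower level. Its C1 libraries had 217, 256 and 62.2 normalized reads in WT and 19.2, 18.9 and 7.94 in dKO cells. The C2 WT libraries had 380.4, 832 and 407 and the dKO libraries 61.7, 30.1 and 66.5. WT and dKO libraries of a line did not overlap, and C2 WT cells had more than C1 WT cells. The log2 fold change was -3.31 ± 0.57 in either line (limma, adjusted p = 0.000259 in C1 and 0.000271 in C2), and the difference between the lines was -0.00044 with a 95% interval from -1.72 to 1.72. Over exon length, the ratio of Ccl3 to Ccl4 stayed between 2.61 and 8.32 in the 15 libraries while Ccl3 itself ran from 26.4 to 2691 normalized reads. Of 9526 candidate genes, Ccl4 was the one whose log2 values were most like those of Ccl3 (Pearson r = 0.976 over 15 libraries, which share lines and so are not independent).

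Ccl6, a CC chemokine made by cells of the neutrophil and macrophage lineages of the mouse, had the highest mean of the ligands in C2 WT cells. In C2 WT replicate 1, however, Ccl9 was higher (3637 against 3056 normalized reads). Ccl6 had 1405, 3452 and 1836 normalized reads in C1 WT and 202, 202 and 189.8 in C1 dKO cells. In C2 cells there were 3056, 6708 and 6334 in WT and 338, 48.6 and 150.2 in dKO libraries. No dKO library came near a WT library, and the C1 dKO libraries were almost equal whereas the C2 dKO libraries spanned a 6.95-fold range. Ccl6 fell by 3.38 ± 0.50 log2 units in C1 (limma, adjusted p = 6.23e-05) and by 5.21 ± 0.50 in C2 (adjusted p = 9.04e-07). The difference between the lines, -1.83 ± 0.71, did not pass the threshold (adjusted p = 0.0642). It ran from -2.49 to -1.10 without 1 library, lowest without C2 dKO replicate 1 and highest without C2 dKO replicate 2, and was called without C1 WT replicate 2, C2 WT replicate 1 or C2 dKO replicate 1 (limma adjusted p down to 0.00517).

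Ccl9, or MIP-1γ, is a ligand of CCR1 and the nearest neighbour of Ccl6 among these genes, and it separated the lines. C1 WT cells had 2999.8, 3567 and 2614 normalized reads and C1 dKO cells 1855, 1814 and 2064. C2 WT cells were close to C1 WT cells with 3637, 4358 and 3478, but C2 dKO cells had only 182, 118 and 169. All C1 dKO libraries were below all C1 WT libraries by a modest margin, and the C2 dKO libraries were far below every other library. The log2 fold change was -0.67 ± 0.15 in C1 (limma, adjusted p = 0.00219) and -4.62 ± 0.15 in C2 (adjusted p = 3.98e-12). The effects differed by -3.95 ± 0.21 between the lines (adjusted p = 3.71e-09), where 29.4% of all tested genes were called, 15.1% higher and 14.3% lower. Of the 10 genes, 4 were called higher in this difference and 2 lower.

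Ccl6 and Ccl9 therefore parted in C1 dKO cells and not in C2 dKO cells. Per exon length, the ratio of Ccl9 to Ccl6 was 0.609 to 1.26 in C1 WT, 5.28 to 6.41 in C1 dKO and 11.2 to 18.7 in LAPS libraries. It was 0.324 to 0.701 in C2 WT and 0.318 to 1.43 in C2 dKO libraries. The ratio was higher in every C1 dKO library than in every C1 WT library, whereas the C2 groups overlapped.

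**Figure D3:**
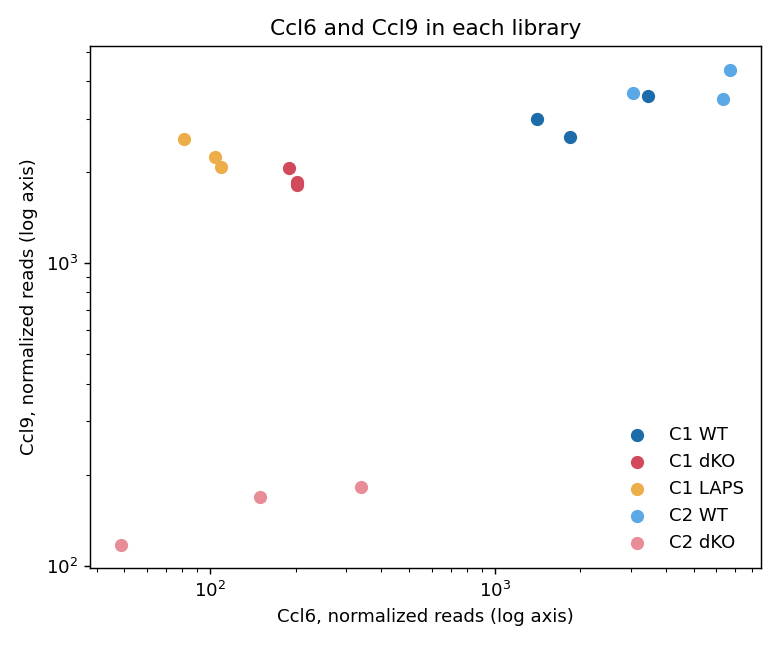
Normalized reads of Ccl6 (horizontal, log axis) and Ccl9 (vertical, log axis) in each library, coloured by group. WT libraries of both lines lie at the upper right, C1 dKO and LAPS libraries at the upper left with low Ccl6 and 1814 to 2574 normalized reads of Ccl9, and C2 dKO libraries at the bottom with 118 to 182.

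Ccl2 (MCP-1), the CCR2 ligand that draws monocytes out of the bone marrow, was expressed in C1 WT cells and close to absent elsewhere. There were 215, 293 and 68.3 normalized reads in C1 WT and 5.66, 1.05 and 1.77 in C1 dKO cells. The C2 WT libraries had 3.98, 0 and 10.1 and the C2 dKO libraries 0, 0 and 1.07. Only the C1 groups were apart, and the C2 WT and dKO libraries overlapped at a few reads. Over the groups, 553 reads in C1 WT stood against 8 in C1 dKO cells, a ratio of 72.3 after normalization (exact 95% interval 36.5 to 168, counting error only). Limma called this change (log2 fold change -5.61 ± 0.76, adjusted p = 2.8e-05), and it did not call the C2 change (-1.58 ± 0.76, adjusted p = 0.119), for which 15 reads stood against 1 (ratio 14.3, interval 2.21 to 604). The C2 change ran from -2.54 to -0.81 without 1 library and was called without C2 WT replicate 2 (limma adjusted p = 0.00996), so it rests on few reads.

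Cxcl2, a CXCR2 ligand that recruits neutrophils, and Cxcl10, an interferon-induced ligand of CXCR3, also fell steeply in C1 dKO cells. Cxcl2 had 76.3, 465 and 61.1 normalized reads in C1 WT and 1.13, 0 and 0 in C1 dKO cells, or 633 reads against 1 over the groups (ratio 662, exact 95% interval 118 to 26205, counting error only). In C2 it had 23.9, 73.4 and 45.8 in WT and 10.5, 4.86 and 2.15 in dKO cells. WT and dKO libraries did not overlap in either line, and C1 WT replicate 2 was far above the other replicates. Limma gave -6.67 ± 0.70 in C1 (adjusted p = 2.08e-06) and -2.89 ± 0.70 in C2 (adjusted p = 0.00421), and the latter was lost with a pseudocount of 0.1 (adjusted p = 0.0504).

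For Cxcl10, C1 WT cells had 935, 499 and 162 normalized reads and C1 dKO cells 10.2, 4.2 and 7.94. C2 WT cells had 28.9, 56.6 and 35.7, and C2 dKO cells 9.42, 1.94 and 22.5. The C1 groups were far apart, and in C2 the lowest WT library was just above the highest dKO library. The log2 fold change was -5.72 ± 0.65 in C1 (limma, adjusted p = 4.53e-06) and -2.15 ± 0.65 in C2 (adjusted p = 0.0164). In C2 the call was lost in edgeR, in a fit of only C2 libraries and without C2 WT replicate 2 or C2 dKO replicate 2 (adjusted p up to 0.0915).

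Between the WT groups of the lines, 1 of the 7 ligands was called higher in C2 and 2 lower, near the shares of all tested genes, 19.7% and 21.3%. This comparison, and that of the dKO groups, was chosen after the values had been seen, and the lines differ in mouse, clone and integration, which cannot be told apart. Ccl2 was lower in C2 than in C1 WT cells (log2 difference -5.43 ± 0.76, limma adjusted p = 2.99e-05) and so was Cxcl10 (-3.41 ± 0.65, adjusted p = 0.000538), both without overlap. Ccl4 was higher in C2 WT cells by 1.73 ± 0.57 (adjusted p = 0.0236), a call that was lost without C1 WT replicate 3 or C2 WT replicate 2 (adjusted p up to 0.127) and in a fit of only these groups (limma adjusted p = 0.0517). Between the dKO groups, 3 of the 7 ligands were called higher in C2 and 1 lower, with 22.8% of genes called higher and 24.9% lower. Ccl9 was lower in C2 (log2 difference -3.63 ± 0.15, limma adjusted p = 3.64e-11) and Ccl3 higher by 2.27 ± 0.46 (adjusted p = 0.000828). Cxcl2 (2.21 ± 0.70, limma adjusted p = 0.0171) and Ccl4 (1.73 ± 0.57, adjusted p = 0.0204) were higher too, calls that each held in 3 of 6 fits without 1 library. In WT cells Ccl9 was at 3060.2 ± 479.6 (SD, n = 3) in C1 and 3824 ± 469 in C2, and 12.2 times higher in C1 than in C2 among dKO cells.

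Per kilobase of exon, Ccl3, Ccl6 and Ccl9 had the highest means of the 10 genes in WT cells. In C1 WT cells the order began with Ccl3 (1476 ± 912 normalized reads per kb, SD, n = 3), Ccl6 (1243 ± 601), Ccl9 (1005 ± 158) and Cxcr4 (1004 ± 111), whose ranges overlapped from each to the next. In C2 WT cells Ccl6 (2989.5 ± 1119) and Ccl3 (2467 ± 967) came before Ccl9 (1256 ± 154) and Cxcr4 (1106 ± 47.5). There the ranges of Ccl6 and Ccl3 overlapped, as did those of Ccl9 and Cxcr4. Within dKO and LAPS cells Cxcr4 had the highest mean, with 1028 ± 94.8 in C1 dKO, 946 ± 112 in LAPS and 1515 ± 7.11 in C2 dKO cells. Its range in LAPS cells overlapped that of Ccl9. Behind Cxcr4 came Ccl9 in C1 dKO cells (628 ± 44.1) and Ccl3 in C2 dKO cells (427 ± 76.7), neither overlapping its neighbours. Ccl2 and Cxcl2 took the last places in the dKO and LAPS groups, each under 3 normalized reads per kb.

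Cxcr4, the CXCL12 receptor that holds haematopoietic cells in the bone marrow, was called higher in C2 dKO cells and not in C1 dKO cells. It had 2042, 1742 and 1662 normalized reads in C1 WT, 2031, 1688 and 1857 in C1 dKO and 1736, 1496 and 1900.5 in LAPS cells. The C2 WT libraries had 1949, 2098 and 1949.5, and the C2 dKO libraries 2724, 2749 and 2743. The C1 groups overlapped, and the C2 dKO libraries were above every other library and within 1.01 times of each other. The change was 0.04 ± 0.09 log2 units in C1 (95% interval -0.17 to 0.24, limma adjusted p = 0.806) and 0.45 ± 0.09 in C2 (adjusted p = 0.00134), or 1.37 times. The difference between the lines was 0.42 ± 0.13 (adjusted p = 0.0275), a call lost under quantile normalization (adjusted p = 0.133) and in 6 of 12 fits without 1 library.

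Ccr1, a receptor for CCL3 and CCL9 on monocytes and granulocytes, passed the test in no comparison. There were 384, 752 and 178 normalized reads in C1 WT, 472, 424 and 631 in C1 dKO, and 276, 365 and 443 in LAPS cells. C2 WT cells had 229, 527 and 597 and C2 dKO cells 511, 293 and 414. Every pair of groups overlapped. The log2 change was 0.43 in C1 (95% interval -0.47 to 1.33, limma adjusted p = 0.461) and -0.07 in C2 (-0.97 to 0.82, adjusted p = 0.915).

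Cxcr2, the receptor of neutrophils for CXCL2, went opposite to its ligand in C1. C1 WT cells had 28.1, 35.2 and 19.4 normalized reads and C1 dKO cells 365, 240.2 and 367. The C2 libraries had 13.9, 30.4 and 34.8 in WT and 52.3, 20.4 and 31.1 in dKO cells. All C1 dKO libraries were above all other libraries, and the C2 groups overlapped at the level of C1 WT cells. The log2 fold change was 3.52 ± 0.35 in C1, or 11.8 times (limma, adjusted p = 1.1e-06), and 0.37 ± 0.35 in C2 (95% interval -0.37 to 1.12, adjusted p = 0.43). The effects differed by -3.15 ± 0.50 between the lines (adjusted p = 0.000196).

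Genes of neutrophil granules moved with Cxcr2 within C1. Of 6 neutrophil markers (Ltf, Ngp, Camp, Lcn2, Mmp8 and S100a8), 5 were higher in C1 dKO than in C1 WT cells and 2 were higher in C2 dKO cells, where Cxcr2 was not called (17.1% and 17.4% of all tested genes were higher). Between C2 and C1 WT cells, 3 of the markers were called higher in C2 and 2 lower (19.7% and 21.3% of all genes), and Cxcr2 was not called (-0.12 ± 0.35, limma adjusted p = 0.825). Their sum was 18278 to 23954 normalized reads in C1 WT, 56939 to 74932 in C1 dKO, 24811 to 28224 in LAPS, 31747 to 56152 in C2 WT and 35835 to 55924 in C2 dKO libraries. Camp, which encodes the antimicrobial cathelicidin, was the second most alike to Cxcr2 of 9526 candidate genes (Pearson r = 0.957 over 15 libraries) after Arel1 (r = 0.959). Its group means were 628, 7670.3, 2191, 971 and 1041 normalized reads in C1 WT, C1 dKO, LAPS, C2 WT and C2 dKO cells. Eosinophil markers (Prg2, Epx and Il5ra) were 3 of 3 higher in dKO cells of both lines, but none reached 10 normalized reads in a WT library, so all 3 passed the filter through the groups where they were high and the count is no support for their direction. Their sum went from 0 in C1 WT to 7133 to 13781 in C1 dKO libraries. The part of such cells in the Cxcr2 result was not tested.

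**Figure D4:**
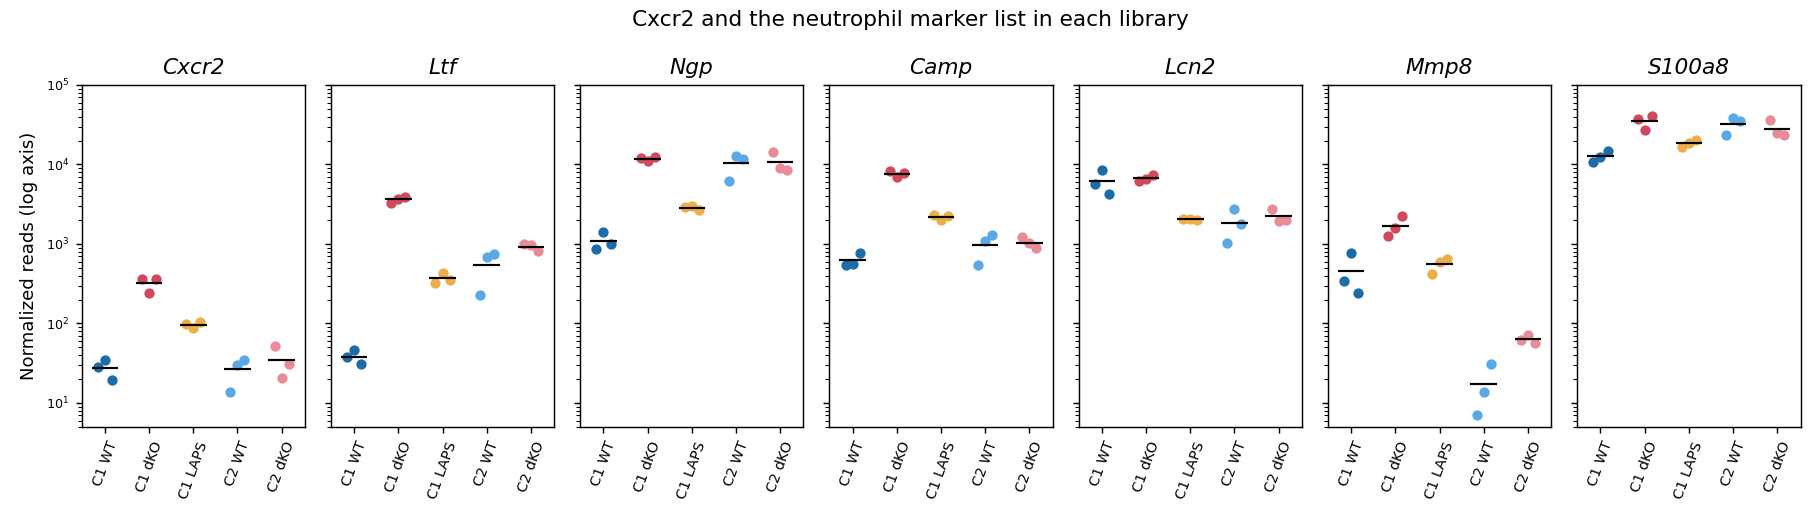
Normalized reads (log axis, shared by all panels) of Cxcr2 and the 6 neutrophil markers in each library, with group means as lines. Cxcr2, Ltf, Ngp, Camp, Mmp8 and S100a8 are higher in all C1 dKO than in all C1 WT libraries, and all 7 genes are lower in all LAPS than in all C1 dKO libraries.

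LAP*, the full-length C/EBPβ isoform, was returned to C1 dKO cells in the LAPS group. Of the 10 genes only Cxcr2 passed the test against C1 dKO cells, where limma called 4.46% of all tested genes, and 3.03% lower. Cxcr2 had 98.5, 86.7 and 105 normalized reads in LAPS cells, below all C1 dKO and above all C1 WT libraries. It was lower than in dKO cells (log2 change -1.71 ± 0.35, limma adjusted p = 0.0104) and higher than in WT cells (1.81 ± 0.35, adjusted p = 0.000796), where 32.5% of all tested genes were called. All 6 neutrophil markers were lower in LAPS than in dKO cells as well, among them Camp (-1.81 ± 0.23, adjusted p = 0.00031) and Ltf, which encodes the iron-binding lactoferrin (-3.30 ± 0.31, adjusted p = 1.82e-05). Such a fall was not particular to neutrophil genes. Summed eosinophil markers were at 592 to 1525 normalized reads in LAPS against 7133 to 13781 in C1 dKO libraries. Mast cell and basophil markers were at 407 to 494 against 1710 to 1983, and megakaryocyte markers at 47.9 to 64.0 against 202 to 302. Sums of progenitor and of monocyte markers overlapped between these groups. The part of these markers in the Cxcr2 result was not tested.

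None of the ligands was called higher in LAPS than in C1 dKO cells. Limma called only 4.46% of all tested genes in this comparison, most of them lower (3.03% of all tested genes), so this count is near the share over all genes. Ccl3 had 51.8, 85.7 and 26.4 normalized reads in LAPS cells and Ccl4 14.2, 9.22 and 2.74. Cxcl10 had 9.14, 6.45 and 6.38, Cxcl2 2.03, 0.92 and 0, and Ccl2 1.02, 0 and 0. These libraries lay within or below the C1 dKO range, apart from Cxcl2, which was at 3 reads or fewer per group in both. The 95% interval of the log2 change against dKO cells was -1.41 to 0.56 for Ccl3, -2.09 to 0.34 for Ccl4 and -1.35 to 1.42 for Cxcl10, so a return of Cxcl10 to its WT level lies outside it. Against C1 WT cells all 7 ligands were called lower in LAPS cells (background 18.3% lower).

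Neither Ccl6 nor Ccl9 passed the test between LAPS and C1 dKO cells. Ccl6 had 109.7, 104 and 81.2 normalized reads in LAPS cells, below every C1 dKO library, with a log2 change of -1.01 ± 0.50 that did not pass (limma, adjusted p = 0.308) but did in a fit of only these groups (adjusted p = 0.0269). Ccl9 had 2082, 2247 and 2574, above every C1 dKO library, with a log2 change of 0.26 ± 0.15 (adjusted p = 0.376). Its call against C1 WT cells (-0.41 ± 0.15, adjusted p = 0.0482) was lost in 5 of 8 alternative fits and in 4 of 6 fits without 1 library, with adjusted p up to 0.198.

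Libraries of a group varied widely for most of these genes. In C1 WT cells the coefficient of variation was 57.5% to 114% for Ccl2, Ccl3, Ccl4, Cxcl2 and Cxcl10, against a median of 9.32% over the genes with a mean of at least 100 normalized reads. Among the others it was 66.4% for Ccr1, 48.4% for Ccl6, 28.8% for Cxcr2, 15.7% for Ccl9 and 11.0% for Cxcr4. C1 WT replicate 3 was the lowest of its group for 9 of the 10 genes and replicate 2 the highest for 8. In C2 WT cells replicate 2 was the highest for 7, and in C2 dKO cells replicate 2 was the lowest for 7. Without any 1 library the number of the 10 genes called lower stayed at 7 in C1 and at 5 or 6 in C2.

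Cytokines, transcription factors and NF-kB inhibitors that regulate chemokine genes moved with the ligands in C1. The inhibitors are Nfkbia and Tnfaip3, so a fall of a listed gene is not always the fall of a driver. Of 19 such regulators, 15 were lower in C1 dKO than in C1 WT cells and none was higher, with a median log2 change of -1.18 over the list, where 19.9% of all tested genes were lower. In C2, 4 were lower and 1 higher (median -0.10), near the 20.1% of all genes that were lower, and the difference between the lines was called for 13 of 19, each with the higher value in C2, against 15.1% of all genes. The largest falls in C1 were those of Il1a (-7.81 ± 0.56, limma adjusted p = 3.09e-08), Irf7 (-5.49 ± 0.55, adjusted p = 1.11e-06) and Il1b (-5.18 ± 0.52, adjusted p = 1.26e-06), genes of the interleukin-1 cytokines and of an interferon regulatory factor. Il1a reached 10 normalized reads in C1 WT libraries only, so it passed the filter through the group where it was high. In C2 Nfkbia, the NF-kB inhibitor IκBα, fell by 0.84 ± 0.15 (adjusted p = 0.000404), Tnfaip3 by 0.85 ± 0.30 (adjusted p = 0.0358) and Jun by 0.99 ± 0.37 (adjusted p = 0.0481), while Fos rose by 0.81 ± 0.30 (adjusted p = 0.0471). In LAPS against dKO cells 2 of 19 were lower and none was higher, where 3.03% of all genes were lower. In C2 WT against C1 WT cells 18 of 19 were lower (median -1.65), where 21.3% of all genes were.

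The C1 WT libraries differed in these regulators too. Irf7 had 3991, 2627 and 432 normalized reads in C1 WT replicates 1 to 3, the same order as Cxcl10, and 30.6 to 42.0 in C1 dKO cells. In C2 it had 10.9 to 15.6 in WT and 11.7 to 22.5 in dKO cells, so C2 WT cells were below C1 dKO cells. Il1b had 278, 779 and 215 in C1 WT cells, with the highest value in the library that was also highest for Cxcl2, and 4.19 to 10.1 in C2 WT cells. The part of these differences between libraries in the ligand results was not tested.

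Monocyte and macrophage markers moved with the ligands in C1 and in part in C2. Of 6 markers listed, 5 passed the filter (Csf1r, Cd14, Adgre1, Cd68 and Ly86), and all of these were lower in C1 dKO cells, as were 19.9% of all tested genes. Ly86 reached 10 normalized reads in C1 WT libraries only, so its direction was fixed by the filter. In the C2 line, Cd14, Cd68 and Ly86 were lower and Adgre1 was higher in dKO cells, where 20.1% of all genes were lower and 17.4% higher. Their sum was 6149 to 8262 normalized reads in C1 WT, 2674 to 3507 in C1 dKO, 2691 to 3187 in LAPS, 953 to 1550.1 in C2 WT and 1425 to 2265 in C2 dKO libraries. Cd14, an NF-kB-inducible co-receptor for lipopolysaccharide, had 372, 763 and 199.7 in C1 WT cells, the same order over libraries as Ccl3, and fell in both lines (-1.56 ± 0.40 in C1, limma adjusted p = 0.00609, and -2.11 ± 0.40 in C2, adjusted p = 0.000641). Their part in the ligand results was not tested.

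The rest of the chemokine system was mostly silent. Of 52 further ligands, receptors and atypical receptors, 36 had a read and 13 passed the filter. In C1 7 of the 13 were lower in dKO cells and none higher, where 19.9% of all tested genes were lower. Of the 7, Ccl5 and Ccl7 passed the filter only through C1 WT cells, which fixed their direction, as did C2 dKO cells for Ccr9, the 1 that was higher in C2. In C2 3 were lower and 1 higher, near the 20.1% of all genes that were lower. For LAPS against dKO cells none was called, near the 4.46% of all genes that were. A mean of at least 100 normalized reads in some group was reached only by Ccr2, the CCL2 receptor of monocytes, and Ccl25, a ligand of CCR9. Ccr2 had 3063, 3987 and 1763 normalized reads in C1 WT, 913, 780.4 and 1319 in C1 dKO, 2392, 3308 and 3719.5 in C2 WT and 494, 281 and 417 in C2 dKO cells. It was lower in dKO cells of both lines without overlap (-1.51 ± 0.32 in C1, limma adjusted p = 0.00147, and -2.99 ± 0.32 in C2, adjusted p = 2.58e-06), and LAPS cells had 708, 1185 and 1569. Ccl25 stayed between 77.6 and 122 in all 15 libraries.

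Among the low genes, Ccl7 and Cxcl3, chosen after their values were seen because they are close relatives of Ccl2 and Cxcl2, fell with them in C1. Ccl7 had 76.3, 111 and 14.3 normalized reads in C1 WT cells and 2.27 or fewer in C1 dKO libraries, and it passed the filter only through C1 WT cells, so its direction was fixed by that choice. Cxcl3 had 37.5, 57.7 and 27.5 in C1 WT cells and 0 in each C1 dKO library. In C2 Cxcl3 had 9.96, 30.4 and 16.5 in WT and 15.7, 1.94 and 11.8 in dKO cells, which overlapped (limma adjusted p = 0.153).

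Genes that act below the receptors moved in both directions. Of 31 tested G protein, kinase, arrestin and RGS genes, 10 were higher and 6 lower in C1 dKO cells, and 12 were higher and 7 lower in C2 dKO cells (17.1% higher and 19.9% lower over all tested genes in C1, and 17.4% and 20.1% in C2), with medians of 0.10 and 0.12 log2 units. Rgs1, a GTPase activator that dampens signalling of chemokine receptors, rose in both lines (2.91 ± 0.41 in C1, limma adjusted p = 4.09e-05, and 2.32 ± 0.41 in C2, adjusted p = 0.000355), but it reached 10 normalized reads only in dKO libraries, so it passed the filter through the groups where it was high. Grk5, a kinase that desensitises such receptors, fell in both (-3.29 ± 0.34, adjusted p = 1.49e-06, and -1.73 ± 0.34, adjusted p = 0.000762). Gng2, a G protein γ subunit, rose most in C2 (4.22 ± 0.30, adjusted p = 3.38e-08), followed after Rgs1 by Rgs18 (2.09 ± 0.16, adjusted p = 5.95e-08). Fgr, a kinase of the Src family, rose in C1 (1.11 ± 0.29, limma adjusted p = 0.00726).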

How the data were processed

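RNA of 15 samples, 3 each of C1 WT, C1 dKO, C1 LAPS, C2 WT and C2 dKO cells, was measured by RNA-seq. Per the labels and the submitters' processing notes, reads were aligned to mm10 with STAR 2.5.3a and counted per gene with HTSeq 0.10.0, and the deposited signal is these read counts divided by DESeq2 1.26.0 size factors. The gene annotation, strand setting and treatment of multiply aligned reads are not given in the sources used here, so related genes such as Cxcl2 and Cxcl3 are uncertain where reads could be split. The 3 columns that matched no sample were not used. In every used column 100% of gene values up to 1000 lay within 0.1 of a whole read at a common step, which is hardest to tell from rounding in C2 WT replicate 1, whose size factor was 1.004. Rows that name no gene held 22.4% to 26.2% of reads and were left out.

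limma 3.58.1 (R 4.3.3) was fitted to log2(normalized reads + 1) of all libraries together, with 1 mean for each group and a prior trended on level, 95% intervals use the t distribution on its total degrees of freedom, and p-values were adjusted over 12673 genes (Benjamini-Hochberg, 0.05). Fold changes on this scale understate changes of low genes, so for Ccl2 and Cxcl2 ratios of summed reads with exact 95% intervals are given, which cover counting error only, and 3 reads were the floor. Whole reads recovered from the size factors were also tested with edgeR 4.0.16 and with DESeq2 1.42.0. The main limma fit, edgeR and DESeq2 were tried on simulated data, for C1 dKO against C1 WT cells only. Alternatives were pseudocounts of 0.1 and 5, no filter, quantile normalization, fits limited to the groups being compared, a replicate block, edgeR, DESeq2 and leaving out each library. Same-numbered replicates did not deviate together in every pair (correlations from -0.17 to 0.30), so numbers were not taken to pair samples. Members and gene lists were chosen with earlier results of these data known. Besides the 10 members, named genes are other chemokine genes with a group mean of at least 100, the 3 largest rises and falls called among signalling and regulator genes in each dKO comparison, and the 2 genes most correlated with each member. Some genes that this rule or a list names are not reported here. Gene positions are from GENCODE vM21 and upstream sequences from RefSeq. Plots used matplotlib 3.10.9 in Python 3.11.15.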

Additional observations from a re-analysis of the deposited data

Results flagged for a closer look

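The dKO effect differed between lines C2 and C1 for 6 of the 10 genes by limma's interaction term (Benjamini-Hochberg adjusted over all genes, of which 29.4% were called). The values are log2 differences, the effect in C2 minus that in C1. Ccl2 (4.03, adjusted p = 0.0105), Cxcl2 (3.77, adjusted p = 0.00945) and Cxcl10 (3.57, adjusted p = 0.00824) had a less negative log2 change in C2, where that of Ccl2 was not called and WT cells had at most 73.4 normalized reads of any of them. Ccl9 fell more in C2 (-3.95, adjusted p = 3.71e-09). Cxcr2 rose in C1 and was not called in C2 (-3.15, adjusted p = 0.000196), and Cxcr4 rose in C2 and was not called in C1 (0.42, adjusted p = 0.0275). Over 8 alternatives the adjusted p for Ccl2 ran from 0.000304 to 0.667 and that for Cxcl2 from 0.00436 to 0.0568.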

How the results depend on the processing

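Of 1040 comparisons of a member's effect with an alternative fit, 946 kept direction and call, 36 lost the call, 22 gained one and 36 changed sign, and no change of sign concerned a called effect. The numbers in this paragraph are log2 changes or counts of the 10 genes, and the cause of each move was not tested. With only the groups compared, 2 genes were called lower in LAPS against dKO cells (Cxcr2 and Ccl6), and edgeR called 2 instead of 4 higher in the difference between lines. The LAPS effect on Cxcl10 was -0.018 in edgeR and -0.024 in DESeq2, and LAPS against WT under quantile normalization was 0.00141 for Cxcr4 and 0.0090 for Ccr1. The Ccl4 difference between lines was 0.059 with a pseudocount of 0.1, 0.17 under quantile normalization, 0.21 in edgeR and 0.19 in DESeq2. For C2 against C1 WT cells, 1 gene was called higher, against 2 with a pseudocount of 5, in edgeR, in DESeq2 and with the replicate block, and 3 under quantile normalization. The replicate block changed these further calls: the Ccl3 difference between lines was called (adjusted p = 0.0442) and Ccl9 in LAPS against WT cells was not. Quantile normalization moved the median of all genes by less than 0.1.

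Leaving out 1 library at a time, effects in C1 dKO cells ran from -0.030 to 0.12 for Cxcr4 and -0.10 to 0.94 for Ccr1, and in C2 dKO cells from -0.014 to 0.69 for Cxcr2 and -0.50 to 0.19 for Ccr1. Against dKO cells LAPS gave -0.82 to 0.0056 for Ccl3 and -0.28 to 0.27 for Cxcl10, with 276 to 487 of all genes called against 565. Against WT cells LAPS gave -0.17 to 0.0067 for Cxcr4 and -0.60 to 0.44 for Ccr1. The difference between lines ran from -0.39 to 0.63 for Ccl4 and -1.01 to 0.025 for Ccr1. C2 against C1 WT cells gave -0.36 to 0.27 for Cxcr2, -0.37 to 0.67 for Ccr1 and 0 to 4 genes called higher (0 without C1 WT replicate 3 or C2 WT replicate 2, and 4 without C1 WT replicate 2). C2 against C1 dKO cells gave -1.20 to 0.19 for Ccl6, -0.54 to 0.96 for Cxcl10 and 2 to 4 genes called higher (2 without C1 dKO replicate 3 or C2 dKO replicate 1). Depth limits Ccl2 in C2, C1 dKO and LAPS cells, and Cxcl2 in C1 dKO and LAPS cells, which had 1 to 15 reads per group.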

Other observations

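Some genes outside the chemokine system had patterns close to those of single members, as Pearson r of log2 values over 15 libraries among 9526 candidates, given as a description since libraries of a group share a line. Cxcl10 was most like Nlrc5 (r = 0.975), an interferon-inducible activator of MHC class I genes, which had group means of 359 normalized reads in C1 WT, 2.95 in C1 dKO, 3.12 in LAPS, 17.9 in C2 WT and 2.1 in C2 dKO cells. Ccl9 was most like Afap1 (r = 0.970) and Agpat3 (r = 0.968). Afap1, which encodes an actin filament-associated protein, had 63.0, 106, 107, 252 and 0.707 in the same order of groups. Ccl6 was most like Itga6 (r = 0.970) and Rusc2 (r = 0.965), and Rusc2 had 54.3, 1.11, 0, 142 and 0.357. Ccl2 was most like Arhgef3 (r = 0.959) and Hp, the haptoglobin gene (r = 0.945), which had 17685 in C1 WT and 3036 to 4498 in the other groups.

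Cxcl2 was most like Fbxl14 (r = 0.962) and the receptor kinase gene Grk5 (r = 0.954). Cxcr4 had Cnnm3 (r = 0.948) and Rfx5 (r = 0.940) closest to it, and Ccr1 had no gene above Smox (r = 0.873).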
